A study of Homo sapiens with 54 samples.

Results

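The acute-phase plasma protein genes ORM1 and CP were followed with 7 companions, ORM2, SERPINA1, SERPINA3, TF, HP, LCN2 and APOD, which made 9 genes of the 60642 human gene symbols measured. The genes were chosen by their measured TPM, for the loss of ORM1 after castration and the high CP under enzalutamide, so those differences are given below as a description with no test, and ORM2, which shares reads with ORM1, is treated in the same way. Every other difference of the 9 genes was open to a test.

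Acute-phase proteins are secreted proteins, made mostly by the liver, whose blood level changes when interleukin-6 and interleukin-1 signal through STAT3, C/EBP and NF-kB factors. ORM1 and ORM2 encode orosomucoid, a glycoprotein that binds lipophilic drugs and steroids. CP encodes ceruloplasmin, the copper-carrying ferroxidase of plasma, and TF encodes transferrin, the plasma iron carrier, whose level falls in inflammation. HP encodes haptoglobin, which captures free haemoglobin, and LCN2 encodes lipocalin 2, which withholds iron from bacteria by binding their siderophores. SERPINA1 and SERPINA3 encode the protease inhibitors antitrypsin and antichymotrypsin, and APOD encodes a small lipocalin that carries lipids. Epithelial cells, those of the prostate among them, can make several of these proteins.

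The 54 tumours were xenografts of LNCaP clone FGC, an androgen-sensitive human prostate cancer line, grown beneath the flank skin of male NOD-SCID mice, hosts without working T and B cells, whose age at harvest is not given in the sources used here. PRE-CX mice (9) had mock surgery at a tumour size of about 200 mm3 and kept their testes until the tumour reached 1000 mm3. All other mice were castrated at about 200 mm3. POST-CX tumours (8) were taken a week later at the lowest serum PSA, and CRPC tumours (10) once PSA had returned to its level before castration or the tumour had grown to 1000 mm3. The 2 enzalutamide groups received this antiandrogen drug by gavage at 10 mg/kg on 5 days of the week, starting when PSA rose after castration. ENZS tumours (12) were taken on treatment at the second PSA low, and ENZR tumours (15) when PSA had recurred or the tumour reached 1000 mm3 despite treatment. One cell line in one host strain stands behind all groups, and every tumour had a mouse of its own. In such bulk samples, fewer cells of a type and less RNA per cell cannot be told apart.

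Values are TPM, read shares per transcript length, scaled over human and mouse genes together, so the human symbols of a tumour summed to less than the whole. Human totals ran from 12.1% in ENZR mouse 87 and 27.9% in POST-CX mouse 91 to 97.5%, and the other 52 tumours lay at 59.7% or above. Results that rest on these 2 tumours are given with and without them. TPM keep no read depth, so the depth behind single values is unknown and a gene reported at 0 is called listed at 0. The markers of LNCaP prostate epithelium KLK3, HOXB13, KRT8 and KRT18 had a group median of at least 1 TPM in every group.

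A filter kept genes with at least 1 TPM in at least 8 tumours, which left 17131 genes and 7 of the 9. APOD reached 1 TPM in 54 tumours, CP in 37, LCN2 in 32, SERPINA1 in 30, SERPINA3 in 18, ORM1 in 13 and ORM2 in 10. TF reached it in 1 tumour and HP in none, so neither is in the main fit. ORM1 and ORM2 passed through the 9 PRE-CX tumours where they are high. SERPINA3 passed only through the enzalutamide groups, with 10 ENZS and 6 ENZR tumours at 1 TPM or more. It had 1 such tumour in PRE-CX, 0 in POST-CX and 1 in CRPC. Differences are limma estimates of log2(TPM + 1), which understate the change of low genes, and a gene was called when its adjusted p over all 17131 genes was below 0.05 and its log2 difference was at least 1 in size.

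**Figure D1:**
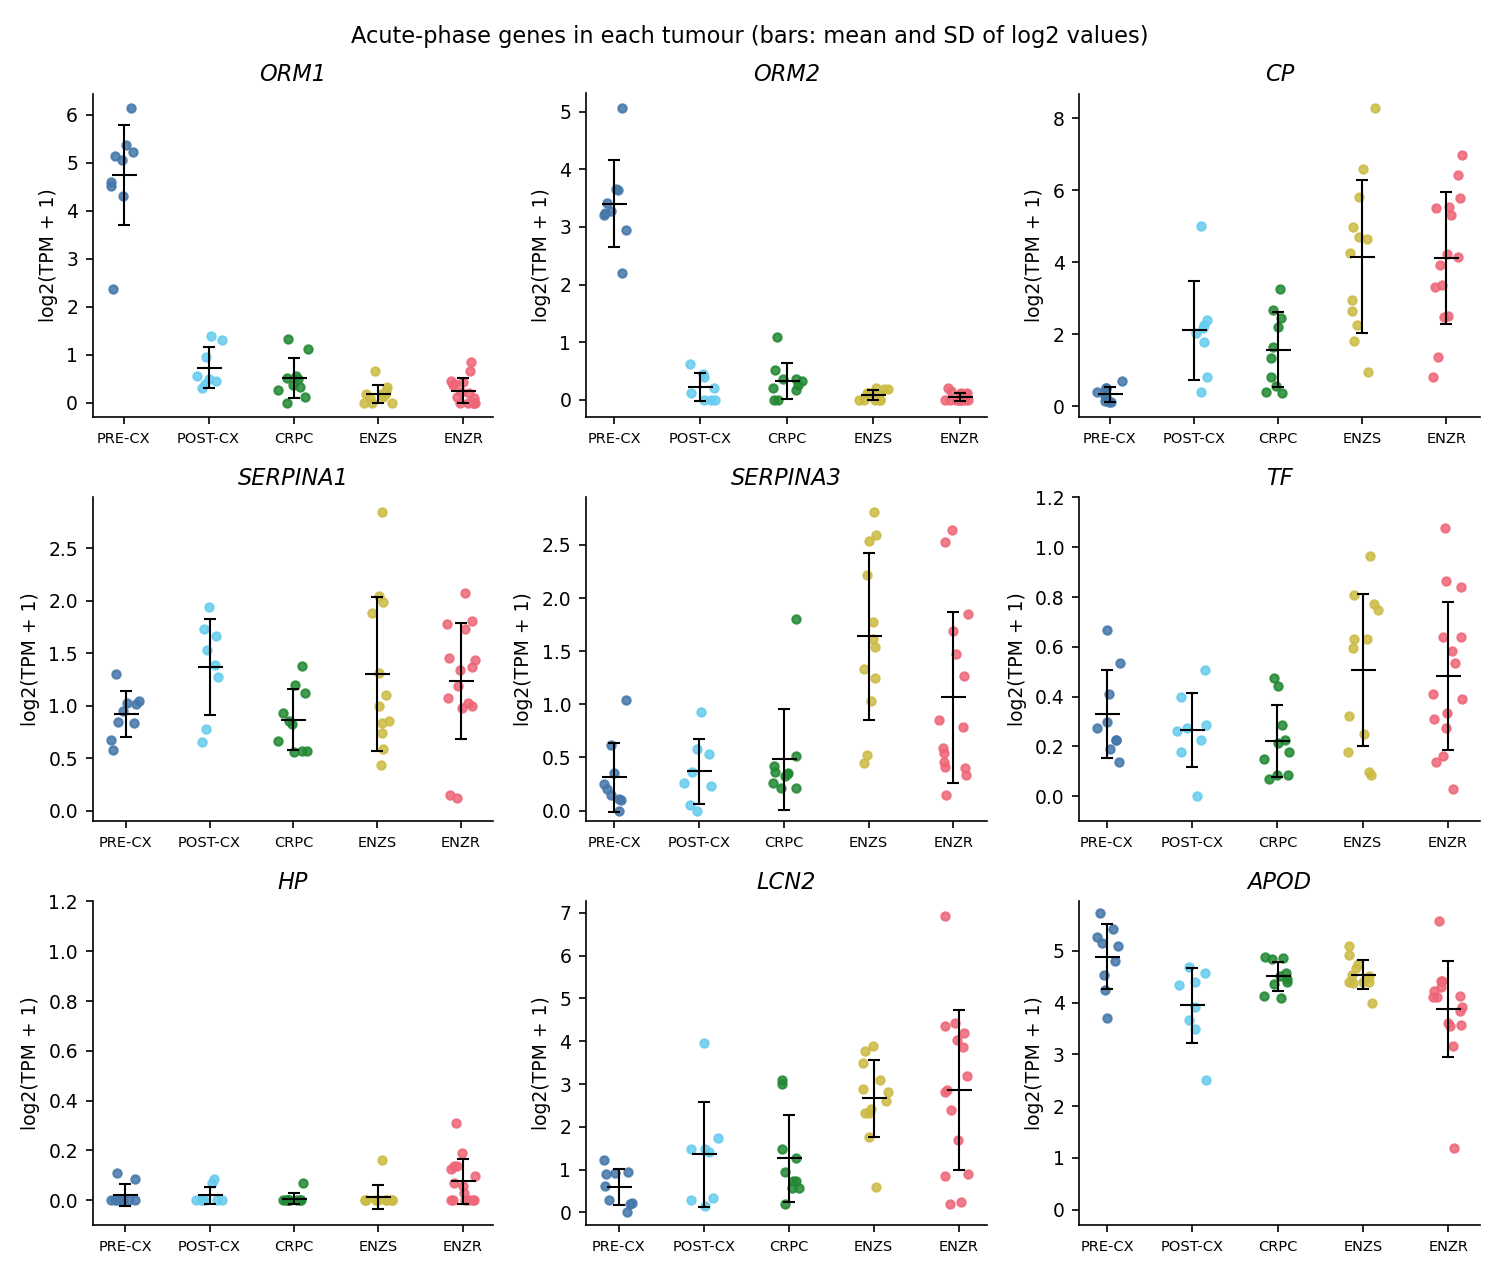
Level of each of the 9 genes as log2(TPM + 1) in each tumour (points) of the 5 groups, with the mean and SD of the log2 values as black bars and a separate vertical scale for each gene. ORM1 and ORM2 are high in the 9 PRE-CX tumours and near 0 elsewhere, CP spreads from near 0 to 309 TPM in the enzalutamide groups, and HP is near 0 throughout.

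ORM1 and APOD had the highest PRE-CX levels of the 9 genes. ORM1 TPM there were 4.21 in mouse 111, 18.92 in mouse 67, 21.86 in mouse 4, 23.21 in mouse 58, 32.25 in mouse 62, 34.43 in mouse 5, 36.24 in mouse 9, 40.37 in mouse 53 and 69.46 in mouse 112, a mean of 31.2 ± 18.1 (SD, n = 9). Mouse 111 stood well below the other 8. In POST-CX the lowest, median and highest ORM1 values were 0.24, 0.435 and 1.62 TPM (mean 0.729 ± 0.547, n = 8). CRPC tumours held 0 to 1.5 TPM with a median of 0.345 (mean 0.481 ± 0.480, n = 10). ENZS values ran from 0 to 0.58 TPM around a median of 0.13 (mean 0.143 ± 0.158, n = 12), and ENZR values from 0 to 0.81 TPM around 0.16 (mean 0.213 ± 0.243, n = 15). ORM1 was listed at 0 in 1 CRPC, 3 ENZS and 5 ENZR tumours. No tumour of a castrated mouse reached the lowest PRE-CX value, as the choice of the gene requires. Of all genes tested, 1.17% lay wholly below PRE-CX in POST-CX, 0.391% in CRPC, 2.86% in ENZS and 0.683% in ENZR.

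The log2 differences of ORM1 from PRE-CX, given as a description, were -4.02 (SE 0.24) in POST-CX, -4.24 (SE 0.23) in CRPC, -4.57 (SE 0.22) in ENZS and -4.49 (SE 0.21) in ENZR. These 4 comparisons share the same 9 PRE-CX tumours. Among castrated mice all values were at most 1.62 TPM, and ORM1 is in the fit through PRE-CX, so the tests between these groups have little to work on. ORM1 differed by -0.22 (SE 0.24, limma adjusted p 0.766) between CRPC and POST-CX, and by -0.33 (SE 0.21, limma adjusted p 0.372) between ENZS and CRPC. Between ENZR and ENZS it differed by 0.07 (SE 0.19, limma adjusted p 0.842). The order of the mean levels was PRE-CX, POST-CX, CRPC, ENZR and ENZS, and the order of the last 4 was not resolved. The widest gap among them, ENZS against POST-CX, was -0.55 (SE 0.23, limma adjusted p 0.0754). With a pseudocount of 0.1, which gives low values more weight, that gap became -1.73 (limma adjusted p 0.00785), and the gap of ENZR to POST-CX moved from -0.48 (limma adjusted p 0.261) to -1.54 (limma adjusted p 0.0470).

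ORM2 is the neighbouring copy of ORM1 on chromosome 9. In build GRCh38.p14 of RefSeq, ORM1 lies at chr9:114323098-114326479 and ORM2 at chr9:114329869-114333251, 3389 bases further on. The transcripts ORM1-201 and ORM2-201 were 95.9% identical over 759 aligned bases, and 29.1% of the 125-base windows of ORM1-201, the read length used, recur unchanged in ORM2-201. RSEM divides such reads by estimate, so the split between the copies is less certain than their sum. ORM2 in PRE-CX had a lowest value of 3.59 TPM in mouse 111, a median of 8.73 and a highest of 32.35 in mouse 112 (mean 11.2 ± 8.30, n = 9). The tumours lowest and highest in ORM1 were thus also lowest and highest in ORM2. ORM1 made up 72.3% ± 8.63 (SD, n = 9) of the sum of both in PRE-CX, between 54.0% in mouse 111 and 82.2%. In castrated mice the highest ORM2 value was 1.13 TPM, in CRPC mouse 81, and 19 of the 54 tumours were listed at 0. The summed level was 42.4 ± 25.7 TPM in PRE-CX (SD, n = 9). After castration it was 0.910 ± 0.701 TPM in the 8 POST-CX tumours and 0.767 ± 0.767 in the 10 CRPC tumours, and under enzalutamide 0.207 ± 0.194 in the 12 ENZS and 0.252 ± 0.285 in the 15 ENZR tumours. As differences from PRE-CX these are -4.34, -4.48, -4.95 and -4.91 on the log2 scale. The sum gave the same calls as ORM1 alone among castrated mice, with ENZS against POST-CX at -0.60 (SE 0.23, limma adjusted p 0.0553).

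**Figure D2:**
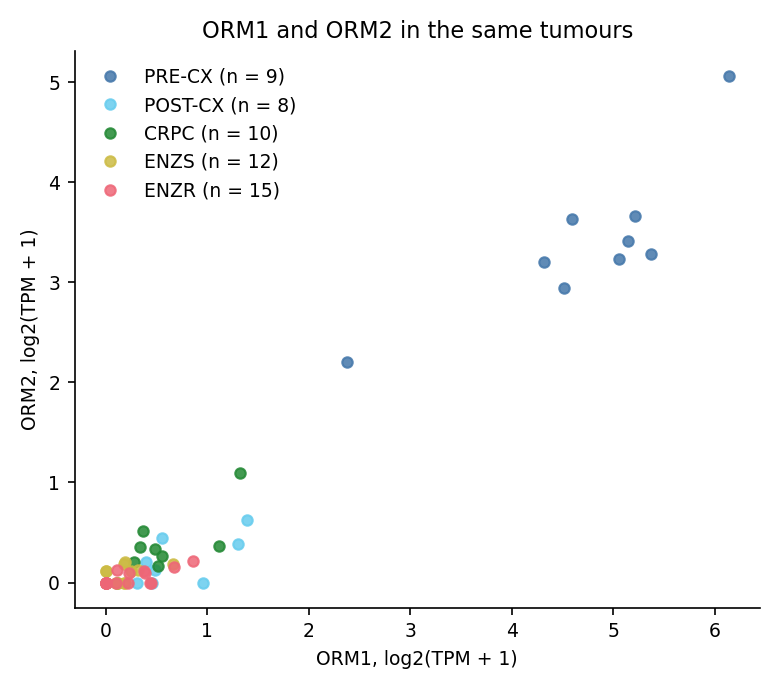
ORM2 against ORM1 in each tumour, both as log2(TPM + 1), coloured by group. The 9 PRE-CX tumours lie apart from all others, with mouse 111 (4.21 and 3.59 TPM) nearest to them and mouse 112 (69.46 and 32.35 TPM) farthest, and the remaining tumours crowd near 0.

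The tested genes within 200000 bases of the ORM pair were AKNA and WHRN. AKNA, which overlaps ORM2 on the annotation, had mean levels of 1.62 TPM in PRE-CX and 1.19 to 1.32 TPM in the other groups. WHRN, 68829 bases beyond ORM2, stood at 5.80 TPM in PRE-CX and 6.11 to 9.64 TPM elsewhere. The genes most like ORM1 over the 54 tumours, by the Pearson correlation of log2 levels, were ORM2 (0.98), ST6GALNAC1 (0.94), HPGD (0.93), AQP4-AS1 (0.92) and LOX (0.92). All share its high PRE-CX level, which the correlation reflects. ST6GALNAC1, a sialyltransferase of mucin-type glycans, went from 39.0 TPM in PRE-CX to between 1.36 and 2.59 TPM in the other groups. HPGD, which inactivates prostaglandins, went from 22.3 TPM to between 0.678 and 0.933 TPM.

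CP, at chr3:149162414-149221829 (GRCh38.p14), was the reverse case, near 0 in PRE-CX and highest under enzalutamide. PRE-CX values were 0.09 TPM in mice 67 and 112, 0.1 in mouse 62, 0.19 in mouse 4, 0.21 in mouse 58, 0.33 in mouse 111, 0.42 in mice 53 and 5, and 0.63 in mouse 9 (mean 0.276 ± 0.188, n = 9). The whole group stayed under 1 TPM. POST-CX values were 0.33 TPM in mouse 48, 0.76 in mouse 18, 2.47 in mouse 99, 3.11 in mouse 44, 3.56 in mouse 92, 3.77 in mouse 86, 4.25 in mouse 66 and 31.25 in mouse 91. Mouse 91, with its human total of 27.9%, stood far above the rest, and the mean moved from 6.19 ± 10.2 (n = 8) to 2.61 ± 1.52 (n = 7) without it. In CRPC the lowest, median and highest values were 0.3, 1.835 and 8.59 TPM (mean 2.76 ± 2.74, n = 10).

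Among ENZS tumours CP ran from 0.95 TPM in mouse 17 through a median of 20.995 to 309.34 in mouse 80 (mean 48.0 ± 86.7, n = 12). ENZR tumours ran from 0.75 TPM in mouse 104 through 16.66 to 125.82 in mouse 95 (mean 31.5 ± 35.6, n = 15). Both enzalutamide groups lay wholly above PRE-CX, in 12 of 12 and 15 of 15 tumours, which the choice of the gene favours. Of all genes tested, 7.53% and 0.158% did so. Against the CRPC range, 7 of 12 ENZS and 11 of 15 ENZR tumours were above it and the others overlapped it. CP varied widely within both enzalutamide groups, with an SD above the mean.

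As a description, the log2 differences of CP were 3.82 (SE 0.63) for ENZS and 3.78 (SE 0.61) for ENZR from PRE-CX, 2.58 (SE 0.62) and 2.54 (SE 0.59) from CRPC, and 2.04 (SE 0.66) and 2.00 (SE 0.63) from POST-CX. Left out of the choice of CP were the steps without the drug and the step from ENZS to ENZR. From PRE-CX to POST-CX the log2 level differed by 1.78 (SE 0.70, limma adjusted p 0.151), with 7 of 8 tumours above the PRE-CX range. Fitted on those 2 groups alone, CP passed at the same 1.78 (limma adjusted p 0.00193), while without the 2 tumours of low human total it was 1.36 (limma adjusted p 0.202). From PRE-CX to CRPC it differed by 1.24 (SE 0.66, limma adjusted p 0.30), with 7 of 10 above the range, and on those 2 groups alone it again passed (limma adjusted p 0.00732). The main fit pools the spread of all 5 groups. CRPC and POST-CX differed by -0.54 (SE 0.68, limma adjusted p 0.804), and ENZR and ENZS by -0.04 (SE 0.56, limma adjusted p 0.974). The step from the PSA low to relapse did not differ detectably between the drug and the castration arm, at 0.50 (SE 0.88, limma adjusted p 0.721). The order of mean levels was ENZS, ENZR, POST-CX, CRPC and PRE-CX. Without mouse 91 the POST-CX mean of 2.61 TPM was below the CRPC mean of 2.76 TPM, and neither ENZS and ENZR nor POST-CX and CRPC differed beyond their spread.

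Fibroblast and smooth muscle markers had, in sum, their highest group medians under enzalutamide, as CP did, and endothelial markers had their highest in PRE-CX. The summed level of 9 fibroblast and smooth muscle genes was 14.2 to 23.7 TPM in PRE-CX (median 17.0), 9.19 to 35.0 in POST-CX (median 24.5), 23.0 to 97.4 in CRPC (median 31.6), 27.5 to 253 in ENZS (median 57.2) and 7.67 to 86.9 in ENZR (median 57.0). At a group median of 1 TPM or more stood 3 of the 9 genes in PRE-CX, 5 in POST-CX and 6 in each of the other groups. In ENZS the highest medians among them were those of TAGLN (14.7 TPM), COL3A1 (12.0 TPM) and COL1A1 (6.53 TPM), while COL1A2 and COL6A3 had medians of at most 0.07 TPM in every group. The ENZS medians of COL1A1 and PDGFRB (0.255 TPM) were near those of PRE-CX, at 6.78 and 0.23 TPM. ENZS mouse 80 held the highest sum as well as the highest CP, with LUM at 109.96 TPM. Leaving out this tumour, a choice made after seeing the data, the log2 difference of CP was 3.44 from PRE-CX and 2.21 from CRPC in ENZS. The part of these cells, or of mouse reads assigned to human genes, in the CP level was not tested. Blood and immune markers summed to at most 11.4 TPM in any tumour, with S100A8 listed at 0 in all 54, and CD68 was their most abundant gene at a median of 3.03 TPM in ENZS against 0.50 in PRE-CX. Endothelial markers, nearly all of it VWF, were highest in PRE-CX, at a median sum of 4.30 TPM. Their medians were 2.83 TPM in POST-CX, 1.02 in CRPC, 1.295 in ENZS and 0.98 in ENZR. Fat cell markers summed to group medians of 0.54 TPM in PRE-CX to 2.31 in ENZS, nearly all of it PLIN1. Of 10 hepatocyte markers only TTR had a group median of at least 1 TPM, with APOC3 listed at 0 in every tumour and ALB at no more than 0.81 TPM.

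HPS3, which overlaps CP on the annotation, rose less, from 20.3 TPM in PRE-CX to 43.3 in ENZS and 34.9 in ENZR, or 0.97 and 0.64 in log2. TM4SF1, 147193 bases away, went the other way, from 37.9 TPM in PRE-CX to between 4.70 and 7.50 TPM in the castrated groups, where it differed by -2.59, -2.20, -2.83 and -2.77 in log2. The libraries were strand-specific, but the counting setting is not given in the sources used here. Over the 54 tumours the genes most like CP by log2 level were LRP4 (0.85), GIMAP7 (0.85), SYNE1 (0.84), MSRB3 (0.83) and LINC02495 (0.83). After each group's mean was taken off, LRP4 (0.78), MSRB3 (0.77) and GIMAP7 (0.76) still led, followed by TPBG (0.75) and MATN3 (0.74). Most of these are faint genes, and SYNE1, a large protein of the nuclear envelope, was the abundant one, at 0.387 TPM in PRE-CX, 30.3 in ENZS and 42.9 in ENZR.

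LCN2 (chr9:128149453-128153453, GRCh38.p14) was low before castration and higher in both enzalutamide groups. PRE-CX values ran from 0 in mouse 62 through a median of 0.52 TPM to 1.32 in mouse 9 (mean 0.561 ± 0.457, n = 9). POST-CX values were 0.1 TPM in mouse 48, 0.22 in mouse 92, 0.26 in mouse 18, 1.66 in mouse 44, 1.77 in mouse 66, 1.81 in mouse 99, 2.34 in mouse 86 and 14.55 in mouse 91. Mouse 91 again stood apart, and without it the mean was 1.17 ± 0.936 (n = 7) in place of 2.84 ± 4.81 (n = 8). CRPC tumours held 0.14 to 7.58 TPM around a median of 0.8, with mice 81 and 47 above 7 TPM and the other 8 below 2. ENZS tumours held 0.51 to 13.84 TPM around 5.52 (mean 6.41 ± 4.04, n = 12), and 11 of 12 exceeded every PRE-CX tumour. ENZR tumours held 0.15 to 120.21 TPM around 6.26 (mean 15.7 ± 29.8, n = 15), and 11 of 15 exceeded the PRE-CX range. The top value belonged to mouse 87, which had the lowest human total of the series, and without it the ENZR mean was 8.21 ± 7.52 (n = 14). The myeloid marker ITGAM was at 1.87 TPM in mouse 87, its highest value, and at 1.43 TPM in POST-CX mouse 91, against medians of 0.18 in ENZR and 0.105 in POST-CX. CD68 stood at 5.54 TPM in mouse 87 and 1.18 TPM in mouse 91, against medians of 1.51 and 0.24, while S100A8 was listed at 0 and PTPRC at no more than 0.01 TPM in both. The part of such cells in the LCN2 level was not tested.

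The log2 level of LCN2 rose by 2.07 (SE 0.52, limma adjusted p 0.00106) in ENZS and by 2.27 (SE 0.49, limma adjusted p 0.000309) in ENZR over PRE-CX. Without the 2 tumours of low human total the rises were 2.07 (limma adjusted p 0.000111) and 1.98 (limma adjusted p 0.000169). Against CRPC the difference was 1.60 (SE 0.48, limma adjusted p 0.0485) in ENZR and 1.40 (SE 0.50, limma adjusted p 0.0670) in ENZS. The ENZR call against CRPC was a marginal one. It was lost when any of 40 of the 54 tumours was left out, ENZR mouse 87 among them (1.31, limma adjusted p 0.0592), and its adjusted p ran from 7.28e-05 to 0.149 over the alternatives. The ENZS difference from CRPC passed, at the same 1.40, without the 2 tumours of low human total (limma adjusted p 0.0145), and over its alternatives the adjusted p ran from 0.000116 to 0.142. It also passed without CRPC mouse 47, CRPC mouse 81, ENZS mouse 101 or ENZR mouse 87 (limma adjusted p 0.0388, 0.0470, 0.0321 and 0.0250). Before enzalutamide no change in LCN2 passed, with 0.77 (SE 0.57, limma adjusted p 0.506) in POST-CX and 0.67 (SE 0.54, limma adjusted p 0.556) in CRPC from PRE-CX. ENZR and ENZS differed by 0.20 (SE 0.45, limma adjusted p 0.815). Against POST-CX the differences of 1.31 in ENZS (SE 0.54, limma adjusted p 0.0732) and 1.51 in ENZR (SE 0.51, limma adjusted p 0.0869) did not pass, and both did without POST-CX mouse 91, at 1.68 (limma adjusted p 0.0289) and 1.88 (limma adjusted p 0.0200). The first also passed without ENZS mouse 101 or ENZR mouse 87 (limma adjusted p 0.0385 and 0.0302), and the second without ENZR mouse 21, 75 or 104 (limma adjusted p 0.0458, 0.0440 and 0.0345).

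SERPINA3 (chr14:94612391-94624053, GRCh38.p14) was a faint gene that was highest in ENZS. The lowest, median and highest values were 0, 0.15 and 1.06 TPM in PRE-CX (n = 9), 0, 0.245 and 0.9 in POST-CX (n = 8), and 0.16, 0.275 and 2.49 in CRPC (n = 10). In ENZS they were 0.36, 1.985 and 5.99 TPM (mean 2.55 ± 1.88, n = 12), and in ENZR 0.11, 0.73 and 5.24 TPM (mean 1.46 ± 1.63, n = 15). Of the ENZS tumours, 9 of 12 exceeded the PRE-CX range and 10 of 12 the POST-CX range, while CRPC mouse 47 overlapped them at 2.49 TPM. The log2 level rose in ENZS by 1.32 (SE 0.26, limma adjusted p 5.27e-05) over PRE-CX, by 1.27 (SE 0.27, limma adjusted p 0.000700) over POST-CX and by 1.16 (SE 0.25, limma adjusted p 0.00179) over CRPC. In ENZR it differed from PRE-CX by 0.75 (SE 0.25, limma adjusted p 0.0185), which is under the size limit (1.78 with a pseudocount of 0.1, limma adjusted p 0.00437, a call), and from CRPC by 0.58 (SE 0.24, limma adjusted p 0.202). ENZR differed from ENZS by -0.57 (SE 0.23, limma adjusted p 0.374). That step did not pass after adjustment over all genes, although its unadjusted limma p was below 0.05. No single tumour decided the 3 ENZS calls, though the gene passed the filter only through the enzalutamide groups, which favours a rise there. Leaving out ENZS mouse 80, rich in fibroblast markers, kept them at 1.24 (limma adjusted p 0.000165), 1.19 (limma adjusted p 0.00183) and 1.07 (limma adjusted p 0.00552), and centring each tumour on its median took the POST-CX one to 0.97 (limma adjusted p 0.0177).

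SERPINA1 (chr14:94376747-94390635, GRCh38.p14), in the same serpin cluster, showed no change that passed. Means with SD were 0.912 ± 0.289 TPM in the 9 PRE-CX, 1.69 ± 0.780 in the 8 POST-CX and 0.857 ± 0.390 in the 10 CRPC tumours. They were 1.81 ± 1.70 TPM in the 12 ENZS and 1.51 ± 0.864 in the 15 ENZR tumours. The groups overlapped throughout, and the highest value, 6.2 TPM, was that of ENZS mouse 80. The nearest to a call by size was CRPC against POST-CX at -0.50 (SE 0.24, limma adjusted p 0.709). SERPINA5, 19273 bases from SERPINA3, had means of 0.123 TPM in PRE-CX and 1.33 in ENZS and did not pass the filter, and the other serpin genes of the cluster that were measured had means of at most 0.015 TPM in every group.

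Promoter sequences from RefSeq (GRCh38.p14) were at hand for 5 of the 9 genes. They are shown for ORM1, which was chosen for its loss, and for SERPINA3 and LCN2, which were called higher in ENZS than in PRE-CX. For SERPINA3 the filter favours that call. Each is the 250 bases before the annotated start, written 5′ to 3′ on the coding strand, which is the plus strand for all 3. The windows are chr9:114322848-114323097, chr14:94612141-94612390 and chr9:128149203-128149452.
ORM1: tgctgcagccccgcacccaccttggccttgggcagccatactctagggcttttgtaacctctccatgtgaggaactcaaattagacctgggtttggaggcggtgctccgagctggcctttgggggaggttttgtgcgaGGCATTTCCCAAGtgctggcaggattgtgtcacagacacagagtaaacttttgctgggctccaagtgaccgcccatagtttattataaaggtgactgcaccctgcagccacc
SERPINA3: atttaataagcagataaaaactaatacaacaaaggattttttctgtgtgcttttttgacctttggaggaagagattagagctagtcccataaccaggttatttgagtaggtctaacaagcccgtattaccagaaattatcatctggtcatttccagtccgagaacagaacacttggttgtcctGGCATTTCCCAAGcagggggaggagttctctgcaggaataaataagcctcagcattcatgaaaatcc
LCN2: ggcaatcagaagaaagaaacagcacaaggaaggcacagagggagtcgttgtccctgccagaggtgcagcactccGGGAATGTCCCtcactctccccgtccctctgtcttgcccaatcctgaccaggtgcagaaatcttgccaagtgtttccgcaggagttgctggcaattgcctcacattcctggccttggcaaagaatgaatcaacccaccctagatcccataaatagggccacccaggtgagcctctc
Capitals in ORM1 and SERPINA3 mark GGCATTTCCCAAG, the longest run that any promoters of 2 of these genes share, chosen after the sequences were seen. It spans 13 bases, from -112 to -100 in ORM1 and from -67 to -55 in SERPINA3, counted back from the base before the start. Of 35116 promoter windows of this length, searched on both strands, 2 held it (0.0057%), those of ORM1 and SERPINA3 themselves. The choice of the run fixed these 2 in advance, so the share is a description. Capitals in LCN2 mark 2 overlapping matches to the letters of an NF-kB site (GGGA, 4 free bases and CC, on either strand), from -176 to -166. The shared run holds a match to the same letters and, overlapping it, one to TTNNGNAA, those of a C/EBP site. TTNNGNAA also occurred at -201 to -194 in ORM1 and at -143 to -136 in LCN2. The NF-kB letters occurred in 22.6% and the C/EBP letters in 33.2% of all windows, so either match is common. TTCNNNGAA, the letters of a STAT site (6.57% of windows), occurred in none of the 3. TGTTCT, the half-site of steroid hormone receptors (12.4% of windows), occurred in SERPINA3 as 2 copies on the opposite strand that overlap by a base, from -90 to -80, and not in ORM1 or LCN2. The 3 genes moved in different directions, and a match in letters shows no binding.

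TF and HP, the transferrin and haptoglobin genes, were nearly silent. TF had group means between 0.171 TPM in CRPC and 0.450 TPM in ENZS, and its highest value was 1.11 TPM in ENZR mouse 21. HP was listed at 0 in 39 of the 54 tumours and reached 0.24 TPM at most. Fitted with no filter, neither was called in any comparison, and TF came nearest between ENZS and CRPC at 0.29 (SE 0.10, limma adjusted p 0.10). HPR, the haptoglobin-related gene 2171 bases from HP, had means of 16.7 ± 2.68 TPM in PRE-CX (n = 9) to 20.2 ± 6.55 in ENZR (n = 15), although HP-201 and HPR-201 were 96.3% identical over their aligned bases and 12.8% of the 125-base windows of HPR-201 recur in HP-201. The near absence of HP therefore stood beside a measured level of its paralog.

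APOD (chr3:195568705-195583940, GRCh38.p14) was the most widely expressed of the 9 genes, at 1 TPM or more in all tumours. The lowest, median and highest values were 12.05, 33.06 and 52.04 TPM in PRE-CX (mean 30.9 ± 12.4, n = 9), and 4.65, 16.765 and 24.81 in POST-CX (mean 16.0 ± 6.93, n = 8). In CRPC they were 16.14, 21.475 and 28.43 TPM (mean 22.2 ± 4.56, n = 10), and in ENZS 14.99, 21.33 and 33.25 TPM (mean 22.7 ± 4.84, n = 12). In ENZR they were 1.29, 16.25 and 47.07 TPM (mean 16.2 ± 9.95, n = 15), with the lowest in mouse 87. Every group overlapped every other. The log2 level fell by 1.01 in ENZR from PRE-CX (SE 0.26, limma adjusted p 0.00247), just at the size limit. Without the 2 tumours of low human total it was -0.82 (limma adjusted p 0.000440), and with human TPM rescaled to a common total -0.82 (limma adjusted p 0.000491), both under the limit in size. That call was also lost without any 1 of ENZR mice 72, 75, 87, 95 and 100 or PRE-CX mice 4, 5, 9, 58 and 67, at -0.82 to -0.99. In POST-CX the difference of -0.94 (SE 0.30, limma adjusted p 0.0645) did not pass, and it passed without PRE-CX mouse 53, PRE-CX mouse 112 or POST-CX mouse 99, at -1.02, -1.08 and -1.04 (limma adjusted p 0.0478, 0.0301 and 0.0444). The genes most like APOD after group means were removed, SEPSECS-AS1 (0.80), ZNF48 (0.79) and ARL16 (0.79), UROS (0.78) and UBE2E3 (0.77), have no plasma protein among them. These correlations include the 2 tumours of low human total and use TPM that were not rescaled. The part of the shared human total in them was not tested.

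Counted over the genes open to a test, limma called 0 of 5 in POST-CX against PRE-CX, where 2.62% of all genes were called (0.916% higher, 1.7% lower), and 2 of the 5 (CP and APOD) had an unadjusted p below 0.05. It called 0 of 5 in CRPC against PRE-CX, beside 3.17% of all genes (2.17% higher, 1% lower), with 0 of 5 at an unadjusted p below 0.05. In ENZS against PRE-CX, LCN2 and SERPINA3 were called higher of 4 tested, beside 9.46% of all genes called higher, 3.27% lower and 12.7% in either direction. In ENZR against PRE-CX, LCN2 was called higher and APOD lower of 4, beside 4.65% higher, 3.9% lower and 8.55% in either direction. Against CRPC, 1 of 6 was called in ENZS (SERPINA3, beside 1.09% higher and 2.42% in either direction) and 1 of 6 in ENZR (LCN2, beside 0.169% and 1.37%). At relapse limma called 0 of 7 in CRPC against POST-CX, beside 0% of all genes, where 1154 of the 17131 and SERPINA1 alone of the 7 had an unadjusted p below 0.05. It called 0 of 7 in ENZR against ENZS, beside 0.00584% of all genes, with APOD and SERPINA3 below 0.05 unadjusted. The difference between the relapse steps called 0 of 7, beside 0.187%, with APOD below 0.05 unadjusted at -1.23 (SE 0.38, limma adjusted p 0.126). In 2 comparisons added to order the levels, 1 of 6 was called in ENZS against POST-CX (SERPINA3, beside 3.72% higher and 4.82% in either direction). In ENZR against POST-CX 0 of 6 were called, beside 1.51% of all genes, and ORM1, LCN2 and SERPINA3 were below 0.05 unadjusted. ORM1 and ORM2, near 0 in castrated mice, are among the genes counted in the comparisons without PRE-CX. SERPINA3, which passed the filter only through the enzalutamide groups, is counted too, and the filter favours its ENZS calls. No test was made of these counts, and a missed call does not show equal levels.

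**Figure D3:**
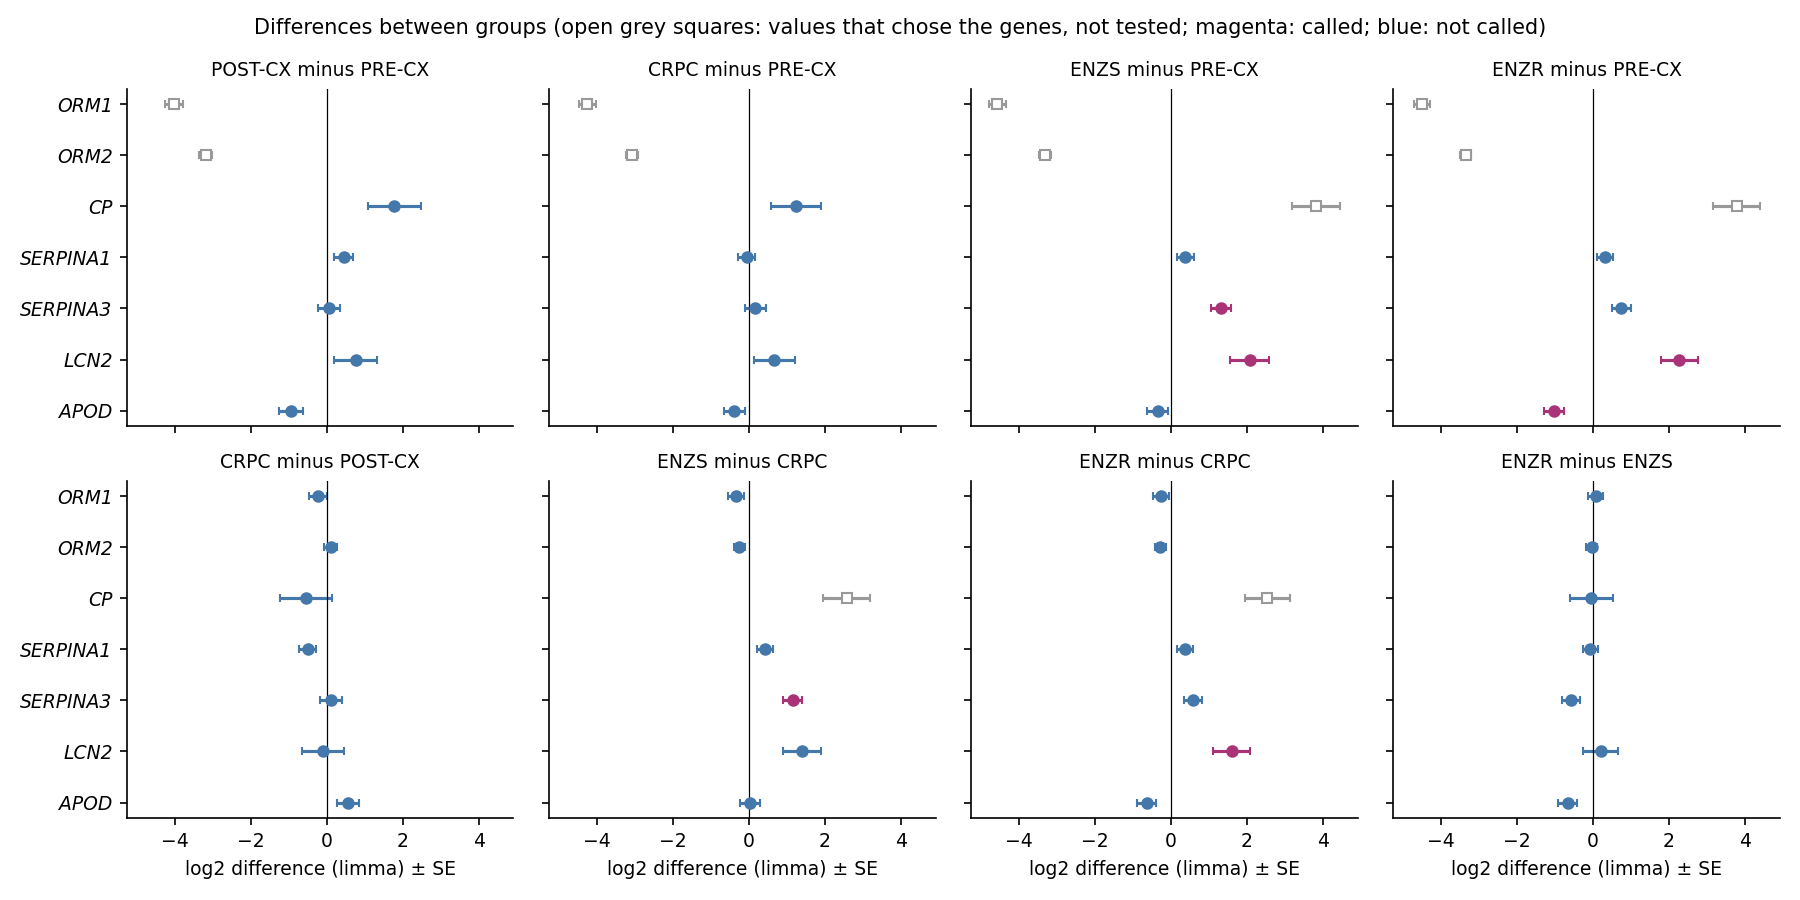
Log2 difference with its SE (limma) for the 7 genes that passed the filter, in 8 comparisons. Grey open squares are the values that chose the genes and were not tested, magenta points were called and blue points were not, and calls appear for LCN2 and SERPINA3 to the right and for APOD to the left.

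Within groups, CP, LCN2 and SERPINA3 tended to be high in the same tumours, which did not hold for the 7 genes as a set. For each of 21 gene pairs, Pearson correlations of log2 levels were taken over the 54 tumours after each group's mean was removed, with permutation within groups and adjustment over the 21 pairs. ORM1 and ORM2, which share reads, are in the fit through PRE-CX and vary mostly there, so their correlation of 0.79 (Spearman 0.54) is a description. CP correlated with LCN2 at 0.53 (Spearman 0.53, adjusted p 0.00252, permutation test) and with SERPINA3 at 0.48 (Spearman 0.50, adjusted p 0.0112, permutation test). SERPINA3 and LCN2 correlated at 0.40 (Spearman 0.55, adjusted p 0.0410, permutation test). These 3 pairs kept their sign and their call with rescaled TPM, at 0.65, 0.50 and 0.46, and without the 2 tumours of low human total, at 0.49, 0.55 and 0.63. Leaving out the 2 tumours farthest from the median of the first gene gave 0.53, 0.44 and 0.47. The exceptions to the pattern were single tumours. ENZS mouse 17 had the lowest CP of its group (0.95 TPM) with LCN2 at 12.64 TPM and SERPINA3 at 5.05 TPM, and ENZR mouse 87 had the highest LCN2 with SERPINA3 at 0.11 TPM.

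**Figure D4:**
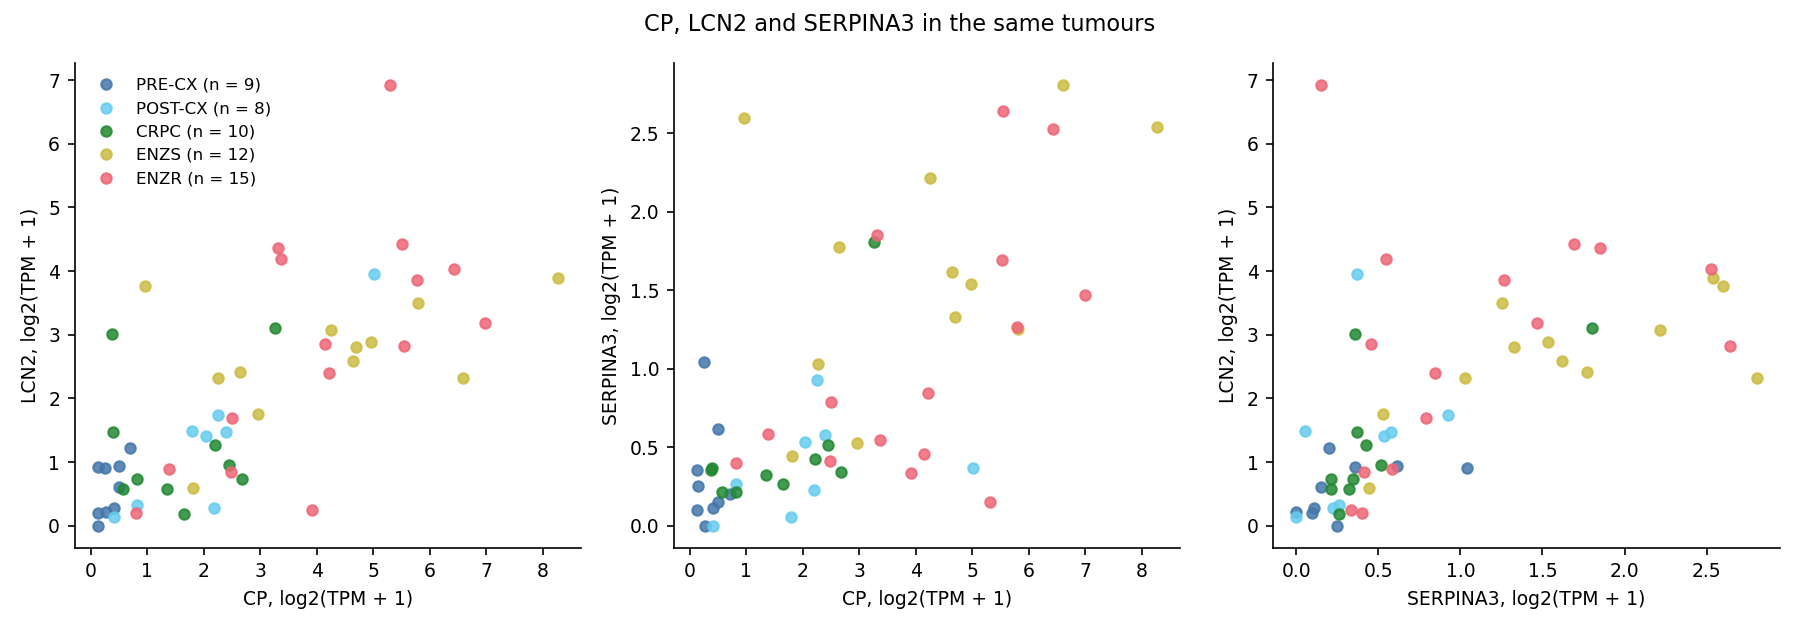
Levels of CP, LCN2 and SERPINA3 against each other in each tumour as log2(TPM + 1), coloured by group. Enzalutamide tumours spread along a rising band while PRE-CX tumours sit at the lower left, and ENZR mouse 87 (LCN2 120.21 TPM) lies off the band in the panels with LCN2.

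SERPINA1 and APOD correlated at 0.41 (Spearman 0.41, adjusted p 0.0112, permutation test), which did not pass without the 2 tumours of low human total, at 0.23 (adjusted p 0.178, permutation test), or with median centring, at 0.16 (adjusted p 0.361, permutation test). LCN2 and APOD correlated at -0.41 (adjusted p 0.0486, permutation test), which rests on a few tumours. Spearman's value was 0.0049, and the Pearson value was -0.19 without the 2 tumours farthest from the LCN2 median and -0.08 with rescaled TPM. ORM1 had values of -0.11 to 0.02 with the genes other than ORM2, none of which passed. With median centring, ORM1 and LCN2 stood at 0.42 by Pearson and 0.16 by Spearman (adjusted p 0.00756 and 0.436, permutation tests). ORM1 was near 0 in castrated mice, where centring mainly subtracts each tumour's median from it, so this value is a description. All points share the human total of their tumour. The genes nearest to SERPINA3 after group means were removed were HSPB8 (0.80), GPR1 (0.79), CHAC1 (0.78), GPAT3 (0.77) and LINC02762 (0.77), of which HSPB8 is a small heat shock protein and CHAC1 degrades glutathione.

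Other plasma protein genes were mostly silent. Of 40 such genes listed, 14 passed the filter, and CRP, the classical acute-phase marker, was listed at no more than 0.08 TPM in any tumour and SAA1 at no more than 4.12 TPM. In ENZS, 4 of the 14 were called higher than in PRE-CX, beside the 9.46% of all genes, and none lower. C1R, a protease that starts the classical complement cascade, had means of 4.90 ± 1.67 TPM in PRE-CX (n = 9) and 35.5 ± 10.9 in ENZS (n = 12), a log2 rise of 2.62 (SE 0.32, limma adjusted p 3.24e-09). CLU, the chaperone clusterin, had means of 17.4 ± 12.3 and 91.1 ± 80.6 TPM, a rise of 2.13 (SE 0.46, limma adjusted p 0.000175). C1S, the partner protease of C1R, rose by 1.27 (SE 0.21, limma adjusted p 3.46e-06), and the fourth was CFB at 1.05. In ENZR, C1R, CLU and C1S were again called higher, at 2.11, 1.16 and 1.04, and TTR lower at -1.06, a call lost with rescaled TPM (-0.99, limma adjusted p 0.0299). C1R was already higher in POST-CX, by 1.66 (limma adjusted p 0.00144), and in CRPC, by 1.57 (limma adjusted p 0.00102), where C2 was called lower at -1.18. Against CRPC, CLU (1.83), CFB (1.25) and C1R (1.05) were called higher in ENZS and CFB (1.15) in ENZR. Over the 14 genes the median log2 difference in ENZS was 0.26, that of all genes tested.

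Genes of interleukin-6 and interleukin-1 signalling gave 23 of 30 that passed the filter. IL6 itself reached at most 0.34 TPM in any tumour, while the receptor gene IL6R had means of 16.8 ± 5.45 TPM in PRE-CX and 9.90 to 11.6 TPM in the other groups. In ENZS, 6 of 23 were called higher than in PRE-CX, beside 9.46% of all genes, and none lower, with a median of 0.50 beside 0.26 for all genes. NFKBIZ, an NF-kB cofactor that LCN2 transcription is known to use, had a mean of 4.06 ± 1.69 TPM in the 9 PRE-CX tumours, against 19.0 ± 7.47 in the 12 ENZS and 24.4 ± 19.6 in the 15 ENZR tumours. Its rise was 1.93 (SE 0.36, limma adjusted p 2.00e-05) in ENZS and 2.07 (SE 0.34, limma adjusted p 5.11e-06) in ENZR. It was also the 1 gene of the list called over CRPC, at 1.29 (limma adjusted p 0.0126) in ENZS and 1.42 (limma adjusted p 0.00895) in ENZR. JAK2, a kinase of cytokine receptors, rose by 1.66 (limma adjusted p 1.08e-06) and IL1RAP, a chain of the interleukin-1 receptor, by 1.47 (limma adjusted p 6.69e-07) in ENZS. Without the drug, JAK2 was already called higher in POST-CX, by 1.003 (limma adjusted p 0.0315), and in CRPC, by 1.17 (limma adjusted p 0.00340), and IL1RAP in CRPC, by 1.14 (limma adjusted p 0.000823). The other 3 were IL6ST, NFKB1 and IL11RA, at 1.27, 1.23 and 1.10. LIFR, the receptor of leukaemia inhibitory factor, fell by 1.51 (limma adjusted p 0.00149) in POST-CX and by 1.33 (limma adjusted p 0.00251) in CRPC. STAT3 had means of 48.0 to 78.6 TPM over the groups and was not called in any comparison.

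Iron and copper genes, the partners of ceruloplasmin, transferrin and lipocalin 2, gave 20 of 23 past the filter. In ENZS against PRE-CX, 5 were called higher and 2 lower, beside 9.46% and 3.27% of all genes. SLC40A1, the iron exporter that ceruloplasmin works with, had means of 5.29 ± 6.48 TPM in PRE-CX (n = 9) and 26.7 ± 14 in ENZS (n = 12). It rose by 2.27 (SE 0.36, limma adjusted p 1.30e-06) in ENZS and by 1.88 (SE 0.35, limma adjusted p 2.97e-05) in ENZR. It was also called in CRPC, at 1.49 (limma adjusted p 0.00746). ATP7A, which loads copper onto secreted enzymes, rose by 1.43 (limma adjusted p 1.53e-06) in ENZS and 1.15 (limma adjusted p 5.04e-05) in ENZR. Its relative ATP7B, also listed, was not called, at 0.05 (limma adjusted p 0.847) in ENZS and -0.12 (limma adjusted p 0.660) in ENZR. The LCN2 receptor gene SLC22A17, the metalloreductase gene STEAP2 and the iron regulator gene HFE were the other 3 in ENZS, at 1.25, 1.41 and 1.27. STEAP4, another metalloreductase, followed ORM1, from 15.0 ± 10.1 TPM in PRE-CX to means of 0.310 to 1.55 TPM, with log2 differences of -3.39, -2.78, -2.65 and -3.08 (limma adjusted p 1.68e-11, 1.90e-09, 7.61e-10 and 1.34e-12). TFRC, the transferrin receptor, fell by 1.2 in ENZS (limma adjusted p 0.00415) and by 1.08 in ENZR (limma adjusted p 0.00948), the latter -0.85 with rescaled TPM. None of the 20 was called against CRPC or at relapse.

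Of 10 genes of the glucocorticoid receptor and its response, 9 passed the filter. NR3C1, the receptor gene, named after its values were seen, had means of 0.450 TPM in PRE-CX, 0.481 in POST-CX, 0.591 in CRPC, 3.93 ± 2.23 in the 12 ENZS tumours and 3.67 ± 3.10 in the 15 ENZR tumours. It was called higher than in PRE-CX, by 1.67 in ENZS and 1.37 in ENZR, and higher than in CRPC, by 1.53 and 1.22. NR3C1 was the only gene of the list called in these comparisons. Of all genes, 9.46% in ENZS and 4.65% in ENZR were called higher than in PRE-CX, and 1.09% and 0.169% than in CRPC. PER1, a clock gene that glucocorticoids induce, fell by 1.52 in POST-CX (limma adjusted p 0.00213). In ENZS it was near PRE-CX, at -0.19 (limma adjusted p 0.644). Over POST-CX it was called higher in ENZS, by 1.33 (limma adjusted p 0.00180), and in ENZR, by 1.21 (limma adjusted p 0.0132). Of the 9 genes, 3 were called higher than in POST-CX in ENZS and 2 in ENZR. Of all 17131 genes, 637 (3.72%) and 129 were called higher, and 4.82% and 1.51% in either direction. DUSP1, at 1.02 in ENZS, was lost with rescaled TPM (0.80). FKBP5, an androgen-induced gene, was called lower than in PRE-CX in POST-CX, CRPC, ENZS and ENZR, by -2.64, -2.28, -2.91 and -3.42, less in size than ORM1 in each. The summed fibroblast and smooth muscle markers given above were also higher in the enzalutamide groups, and their part in these rises was not tested.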

How the data were processed

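Polyadenylated RNA of 54 xenografts was sequenced with a strand-specific kit as read pairs of 125 bases. Per the submitters' processing notes, tools were FastQC 0.11.9, Trim Galore 0.6.5, STAR 2.7.2b and RSEM 1.3.3, with human GRCh38 and mouse GRCm38. The authors deposited TPM per human gene symbol, a unit without read depth, so no counting interval can be given, and precision rests on the 8 to 15 tumours per group. RSEM shares reads between near-identical genes such as ORM1 and ORM2.

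Tumours were grouped by the deposited labels. Genes with at least 1 TPM in at least 8 of 54 tumours (17131) were fitted as log2(TPM + 1) with limma 3.58.1 (R 4.3.3), all 5 groups in one model with no covariate, as moderated two-sided tests with Benjamini-Hochberg adjustment over all genes. The call needed an adjusted p below 0.05 and a log2 difference of at least 1. Human TPM rescaled to a common sum of 1000000, median centring, a pseudocount of 0.1, no filter, array weights, fits on the compared groups alone and left-out tumours were alternatives. Rescaling together with the removal of the 2 tumours of low human total, the removal of ENZS mouse 80 and the removal of each tumour in turn were added after seeing the data. ENZS and ENZR were also set against POST-CX to order the levels. Correlations used 100000 permutations within groups (Python 3.11.15, scipy 1.17.1), the smallest p they can give being 1e-05. The script for the fit was tested on simulated data.

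The 9 genes, the gene lists and the cell type markers were chosen with earlier results of these data known. All 9 genes are named. From each list, per comparison, up to 3 called genes with the largest rise and up to 3 with the largest fall were named if either group averaged 5 TPM or more, and others named are those that complete a count. Likeness was the highest Pearson correlation over 54 tumours, on TPM that were not rescaled. Positions and promoters came from RefSeq (GRCh38.p14). Transcript sequences came from a GENCODE set on another build, used for sequence only. Protein sequences were not used here.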

Additional observations from a re-analysis of the deposited data

Results flagged for a closer look

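Among the groups of 8 to 10 tumours, 27 gene and group combinations were examined for a tumour standing apart on the log2(TPM + 1) scale, by the gap to its nearest neighbour over the whole range of the group (Dixon's ratio). Were the values normal and the groups independent, chance would mark about 1 group in 20, and 6 were marked. Several genes lay near 0 and genes share tumours, so no excess over chance can be read from this. ORM1 in PRE-CX was marked for its lowest tumour, mouse 111, at 4.21 TPM against 18.92 for the next (ratio 0.515). ORM2 in CRPC was marked for mouse 81, at 1.13 TPM against 0.43 (ratio 0.527). CP and LCN2 in POST-CX were marked for the same tumour, mouse 91, with CP at 31.25 TPM against 4.25 (ratio 0.569) and LCN2 at 14.55 TPM against 2.34 (ratio 0.581). That tumour had a human total of 27.9%, and the part of this in either value was not tested. SERPINA3 in CRPC was marked for mouse 47, at 2.49 TPM against 0.43 (ratio 0.810). HP in CRPC was marked for mouse 107, at 0.05 TPM where the other 9 tumours were listed at 0 (ratio 1). CRPC mouse 47 was also the highest of its group in CP (8.59 TPM), in LCN2 (7.58 TPM) and in the sum of fibroblast and smooth muscle markers (97.4 TPM).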

How the results depend on the processing

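Of 759 differences recomputed under an alternative, for the 7 genes that passed the filter or with ORM1 and ORM2 summed, 723 kept their direction where called and their side of the threshold, 19 passed newly, 7 no longer passed, 10 untested values moved and none reversed. No paired analysis was possible because no mouse number is shared between groups. The number of genes called went from 0 to 1 in POST-CX against PRE-CX with a pseudocount of 0.1, with only the compared groups and with array weights (CP each time), and likewise in CRPC against PRE-CX with the first 2. In ENZR against PRE-CX it went from 2 to 1 with rescaled TPM, without the 2 tumours of low human total, and with both, through APOD, and to 3 with a pseudocount of 0.1, through SERPINA3. ENZS against CRPC went from 1 to 2 without those tumours, with only the compared groups, with array weights and with rescaling plus removal, through LCN2. ENZR against CRPC went from 1 to 0 with a pseudocount of 0.1, no filter and only the compared groups. ENZS against POST-CX went from 1 to 0 with median centring and to 2 with a pseudocount of 0.1, without the 2 tumours, with only the compared groups, with array weights and with rescaling plus removal. ENZR against POST-CX went from 0 to 1 with a pseudocount of 0.1, without the 2 tumours, with array weights and with rescaling plus removal. Gene pairs that correlated within groups numbered 6, with 6 under a pseudocount of 0.1, 8 with rescaled TPM and 10 with median centring. Every such count includes ORM1 with ORM2, which share reads and are a description. Without the 2 tumours of low human total 6 passed, of which CP with SERPINA1 and SERPINA1 with LCN2 were gained and both pairs with APOD lost. With median centring, ORM1 with LCN2 and ORM2 with LCN2 and SERPINA3 were among those gained. These 3 involve genes near 0 in castrated mice and are a description. By Spearman none of them passed (adjusted p 0.436, 0.0849 and 0.0702, permutation tests). With 1 tumour left out, these counts ran from 0 to 1 in POST-CX against PRE-CX, 1 to 2 in ENZR against PRE-CX, 1 to 2 in ENZS against CRPC, 0 to 1 in ENZR against CRPC, 1 to 2 in ENZS against POST-CX and 0 to 1 in ENZR against POST-CX. A pseudocount of 0.1 moved ORM1 in POST-CX from -4.02 to -5.21 and CP in ENZS from 3.82 to 5.54, since it weights low values more. Other causes were not tested. TPM without depth, groups of 8 to 15 and levels near 0 limit what could be called.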
